A study of Rattus norvegicus with 24 samples.

Results

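The dorsal striatum of rats killed 2 h after the end of methamphetamine (METH) self-administration was compared with that of yoked saline rats on the same slide. Samples were chosen from their titles, which name METH with the 2 h time or yoked saline, and from the slide in their array names. They were 12 of the 24 arrays of the series, 6 METH and 6 saline. The other 12 arrays, 6 METH arrays of the 24 h time and 6 saline arrays on slides 2 and 3, served for the difference between the times and for alternative fits. All were male Sprague-Dawley rats of 375 ± 50 g, housed singly on a reversed light cycle. METH rats gave themselves the drug intravenously, 0.1 mg/kg with each injection, in 15 h sessions on 8 days. Yoked saline rats receive saline whenever a paired animal earns drug, but the labels pair no saline rat with a METH rat and give saline rats no time of death. The arrays were RatRef-12 BeadChips, on which METH and saline arrays alternated along slide 1.

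Dopamine released by METH acts in the striatum on projection neurons that carry D1 or D2 receptors. D1 receptors raise cyclic AMP, which leads to phosphorylation of the transcription factor CREB. Phosphorylated CREB, which the series title names, and the AP-1 factors of the Fos and Jun family drive immediate early genes within minutes and later neuropeptide genes and growth factors. Striatal peptides such as dynorphin, enkephalin, substance P and neurotensin are known to follow dopamine signalling. The comparison addresses which transcripts differ from saline early after a session.

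Slide 1 gave 8606 to 9369 detected probes per METH array and 8208 to 9428 per saline array. A probe was tested where its detection p was under 0.05 on at least 6 of the 12 arrays, which left 9008 of 22523 probes and 6543 named genes. Levels are normalized log2 signals, which compare arrays and not different probes. Array weights, which follow from how far an array strays from its group, were lowest for saline replicate 4 (0.473) and METH replicate 6 (0.540). The first principal component held 18.5% of the variance and set METH replicate 6 apart, and the second held 16.9% and set saline replicate 4 apart. The counts of probes called, of neuropeptide precursors and of their receptors are therefore also given without both arrays. The dopamine receptor genes Drd1 and Drd2, the peptide genes Pdyn, Penk and Tac1 and the signalling genes Ppp1r1b and Pde10a, which are known markers of projection neurons, were detected on all 12 arrays. No other tissue was measured beside them. The mean signal of 26 projection neuron markers was 9.78 to 10.05 on METH arrays and 9.93 to 10.23 on saline arrays.

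At 2 h, 2 genes rose in METH rats over all probes tested: Nmu and Fst. They were 0.0222% of the 9008 probes by limma with Benjamini-Hochberg adjustment, and 0 probes (0%) fell. At an unadjusted p under 0.05, 307 probes were higher (3.41%) and 240 were lower (2.66%), 547 in all where 450 are expected by chance. The groups did not overlap at 25 probes with METH above saline (0.278%) and 14 with METH below (0.155%).

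Nmu encodes neuromedin U, a peptide that acts on G protein-coupled receptors and is known for its roles in feeding and stress responses. Its signal had a lowest value of 7.37, a median of 7.77 and a highest value of 8.56 on METH arrays, against 6.04, 6.36 and 6.73 on saline arrays. The groups did not overlap, and the signal was detected on all 12. The log2 change was 1.48 (SE 0.178), a 2.79-fold difference (adjusted p = 0.0011). It passed whichever array was left out, with log2 changes of 1.34 to 1.58 (adjusted p 0.000671 to 0.00589), and without saline replicate 4 and METH replicate 6 together (1.44, adjusted p = 0.014). In the deposited log2 values, which are not scaled between arrays, it did not pass (1.86, adjusted p = 0.193).

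Fst encodes follistatin, a secreted protein that binds activins and keeps them from their receptors. Its signal was 6.98, 7.24 and 7.66 (lowest, median and highest) on METH arrays, against 5.57, 6.33 and 6.68 on saline arrays, where it was detected on 5 of 6. The groups did not overlap, and saline replicate 4 was the low array at 5.57. The log2 change was 1.01 (SE 0.168), a 2.02-fold difference (adjusted p = 0.046). The call was lost without METH replicate 1, 3, 4 or 5 or saline replicate 1, 2, 5 or 6 (adjusted p 0.0555 to 0.138), and held without both arrays of lowest weight (log2 change 0.80, adjusted p = 0.0349). It was also lost with median scaling (adjusted p = 0.0581), with slide position in the fit (0.0578), with all 24 arrays normalized together (0.0605), with no filter (0.206), with no further background correction (0.302) and in the deposited log2 values (0.9).

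**Figure D1:**
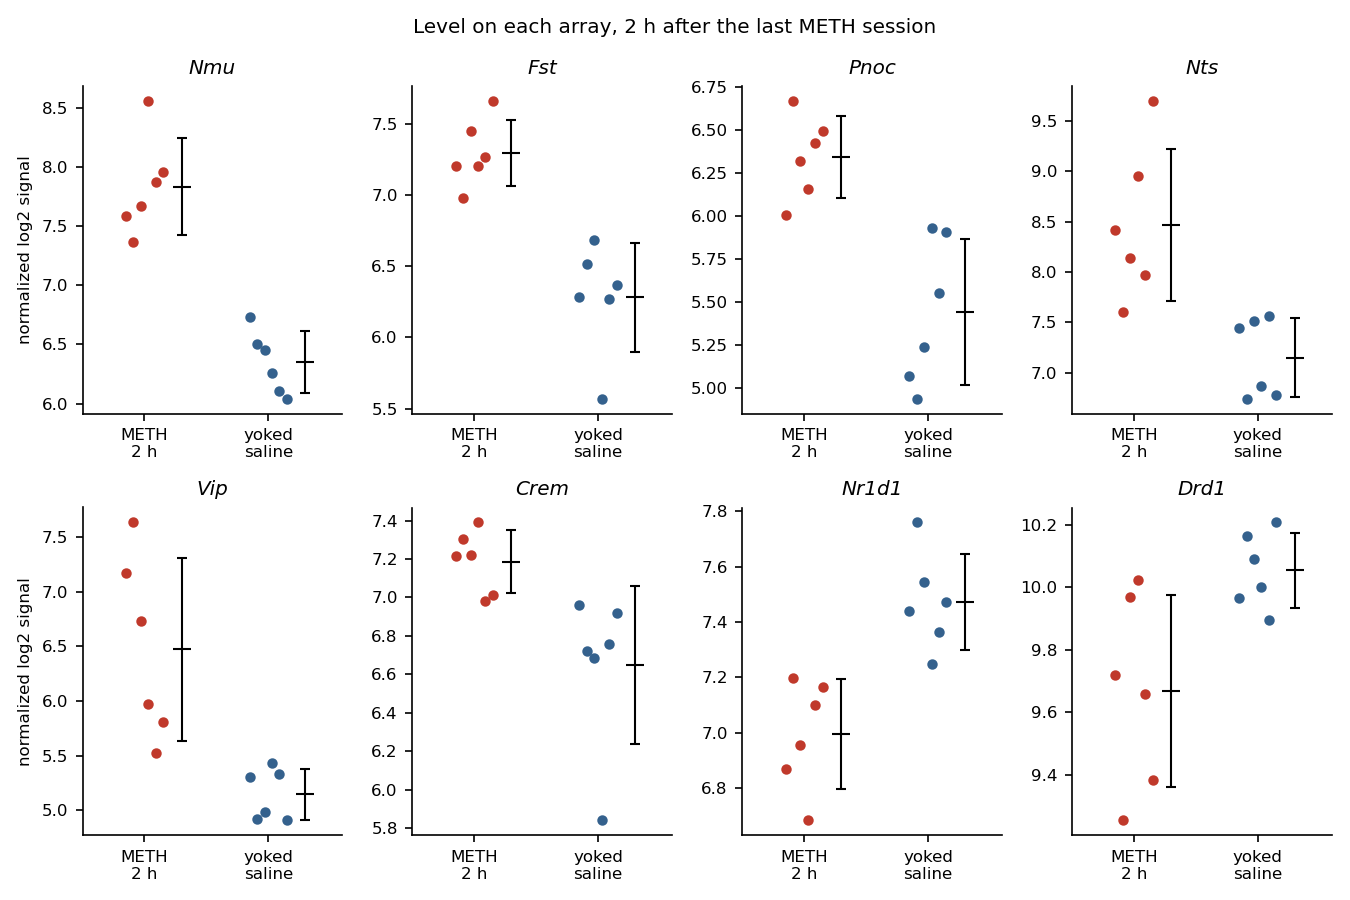
Normalized log2 signal of 8 genes on each array of slide 1, with METH arrays of the 2 h time left of yoked saline arrays (points, 6 arrays a group) and the group mean with its SD (bars). METH arrays lie wholly above saline arrays for Nmu, Fst, Pnoc, Nts, Vip and Crem and wholly below them for Nr1d1, while the groups overlap for Drd1, and each panel has its own axis.

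Of the neuropeptide precursors, 35 of 39 listed genes were on the array and 21 passed the filter. Nmu rose and the other 20 did not pass. At an unadjusted p under 0.05, 12 members were higher and 0 lower, where 228 of all 6543 tested genes were higher and 171 lower. Vip was among the 12 through its METH arrays alone. The median log2 change was 0.41 over the 21 members, also with Vip at the bound given below, and 0.003 over all tested genes. Leaving out 1 array at a time gave 10 to 12 members higher and 0 lower, and leaving out both arrays of lowest weight gave 11 and 0. The list and the genes singled out were chosen with earlier results of these data known, so these counts describe the list and are no separate support. Cortex markers, Cck among them, were higher on the same METH arrays (median of the mean level 7.53, against 6.84 on saline arrays), and with their mean as a term of the fit 10 precursors were higher and 0 lower, with a median of 0.27. In that fit 360 of all tested genes were higher and 253 lower. With median scaling in place of quantile normalization, 487 of all tested genes were higher and 7 lower with a median of 0.185, and 12 precursors were higher and 0 lower with a median of 0.59. Of all lists and marker lists, choroid plexus and ependyma markers alone then had a member lower at an unadjusted p under 0.05. Fewer cells of a type and less RNA per cell cannot be told apart in this tissue RNA.

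Pnoc, the precursor of nociceptin, the ligand of an opioid-related receptor, had signals of 6.01, 6.37 and 6.67 (lowest, median and highest) on METH arrays, against 4.94, 5.40 and 5.93 on saline arrays. The groups did not overlap, although saline signal was detected on 3 of 6 arrays (log2 change 0.90, SE 0.177, adjusted p = 0.133). Without both arrays of lowest weight it passed (0.97, adjusted p = 0.0432). Nts encodes neurotensin, a peptide that modulates dopamine neurons and their targets. It had signals of 7.60, 8.28 and 9.70 on METH arrays, against 6.74, 7.15 and 7.56 on saline arrays. All METH arrays again lay above all saline arrays, and they spread more widely than these (log2 change 1.31, SE 0.276, adjusted p = 0.201). Nts passed with all 24 arrays normalized and fitted together (adjusted p = 0.036), and so did Pnoc (0.0342).

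Vip, the vasoactive intestinal peptide gene, was detected on all 6 METH arrays, at 5.52, 6.35 and 7.63, and was not well above background on any saline array (4.91, 5.14 and 5.43). It passed the filter through the METH arrays alone, so no p is given for it, and was at least 2.01-fold higher there. Such a fold sets the METH mean against the higher of the lowest detected signal and the gene's own signal on each saline array. Cort, which encodes the somatostatin relative cortistatin, was detected on 5 METH arrays and 3 saline arrays. Its signals were 5.34, 6.26 and 6.84 on METH arrays, against 4.99, 5.39 and 5.69 on saline arrays (log2 change 0.85, adjusted p = 0.333), and 5 METH arrays exceeded all saline arrays.

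The other members with an unadjusted p under 0.05 were Pdyn, Adcyap1, Scg2, Cck, Npy, Chga and Tac3. Pdyn, the dynorphin precursor of D1-type projection neurons, differed by 0.53 in log2 (SE 0.153, adjusted p = 0.516). Its METH arrays lay above all of saline in 4 of 6 cases. Adcyap1, which encodes PACAP, a peptide that raises cyclic AMP, had 0.70 (SE 0.229, adjusted p = 0.595). Scg2, Chga and Tac3 had 0.48, 0.41 and 0.39. The first pair encodes granins, proteins of the dense granules that carry peptides, and Tac3 encodes neurokinin B. Npy, the neuropeptide Y gene of striatal interneurons, had 0.42 (SE 0.157, adjusted p = 0.697). Cck, the cholecystokinin gene, had the largest log2 change of the list, 1.71, but its SE was 0.598 and saline arrays ran from 6.66 to 10.93 (adjusted p = 0.632).

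Penk and Tac1, further classical peptides of projection neurons, were on the array too. Penk, the enkephalin precursor of D2-type neurons, differed by -0.06 in log2 (SE 0.14, adjusted p = 0.978). With median scaling its change was 0.17, where the median change of all tested probes was 0.176. Tac1, the substance P precursor, had 0.18 (SE 0.146, adjusted p = 0.91), and 0.42 with median scaling. Sst, the somatostatin gene of interneurons, and Cartpt, which encodes CART peptide, had 0.18 and 0.06. Of 34 listed neuropeptide receptors, 11 passed the filter and 0 had an unadjusted p under 0.05 in either direction, by limma. Among all 6543 tested genes 228 were higher and 171 lower. The lowest p of the receptors was that of Sstr1, a somatostatin receptor (log2 change 0.51, SE 0.289, adjusted p = 0.873). Without both arrays of lowest weight the receptor count was 2 higher and 0 lower, against 268 and 190 of all tested genes.

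The 250 bases before the start were read for the peptide genes from RefSeq promoter entries on GRCr8, since CREB and AP-1 sites are the known routes from dopamine and cyclic AMP to these genes. Of 11 genes sought, 8 had an entry, and Fst, Pnoc and Cck had none. Chga and Tac3 were not sought. Both strands were searched for the full cyclic AMP response element TGACGTCA, for its core TGACG, and for the AP-1 site TGAGTCA. The full element holds the core on both strands, and the core of Nts stands on the other strand. The sequences of 4 genes are shown because, among those read, they hold the matches of the genes with the largest changes and the only full element. Capitals mark the matches.
Nmu: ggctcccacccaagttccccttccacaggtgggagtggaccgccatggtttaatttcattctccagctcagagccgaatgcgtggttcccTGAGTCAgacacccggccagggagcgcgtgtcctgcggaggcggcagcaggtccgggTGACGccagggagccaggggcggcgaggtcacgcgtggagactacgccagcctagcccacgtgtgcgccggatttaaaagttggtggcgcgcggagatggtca
Nts: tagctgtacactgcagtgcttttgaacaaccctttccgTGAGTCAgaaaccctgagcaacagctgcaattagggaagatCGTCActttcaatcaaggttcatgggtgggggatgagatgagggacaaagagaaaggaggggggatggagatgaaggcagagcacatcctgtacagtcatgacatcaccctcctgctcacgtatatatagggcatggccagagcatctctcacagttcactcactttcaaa
Vip: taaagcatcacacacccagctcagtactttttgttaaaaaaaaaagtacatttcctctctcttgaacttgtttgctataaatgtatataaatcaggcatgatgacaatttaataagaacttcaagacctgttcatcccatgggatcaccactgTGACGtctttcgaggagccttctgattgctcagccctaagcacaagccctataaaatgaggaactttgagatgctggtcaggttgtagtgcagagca
Scg2: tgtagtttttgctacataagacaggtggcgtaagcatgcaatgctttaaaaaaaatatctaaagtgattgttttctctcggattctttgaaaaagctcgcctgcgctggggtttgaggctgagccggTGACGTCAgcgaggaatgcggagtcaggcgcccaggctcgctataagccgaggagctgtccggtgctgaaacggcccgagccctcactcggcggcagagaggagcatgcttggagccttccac
The Nmu sequence (chr14:32198693-32198942, plus strand) holds an AP-1 site from 160 to 154 bases and a core from 103 to 99 bases before the start. The Nts sequence (chr7:39460889-39461138, minus strand) holds an AP-1 site from 212 to 206 bases and a core from 171 to 167 bases before it. The Vip sequence (chr1:44470230-44470479, plus strand) holds a core from 97 to 93 bases. The Scg2 sequence (chr9:88256867-88257116, minus strand) holds the full element from 123 to 116 bases. Of all 33469 promoters of this length, 1.59% hold the full element, 18.2% a core and 4.05% an AP-1 site. Cort holds a core too, and these letters were not in the windows of Pdyn, Adcyap1 and Npy. A match is a run of letters, and binding was not measured.

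Fst belongs to the activin, TGF-beta and BMP genes, which are secreted growth factors, their receptors and the SMAD proteins that carry the signal to the nucleus. Of 36 listed, 18 passed the filter, Fst rose, and the other 17 did not pass. At an unadjusted p under 0.05, 2 members were higher and 2 lower, against 228 and 171 of all 6543 tested genes, and the median log2 change was -0.09. With median scaling 3 were higher and 0 lower with a median of 0.08, against 487 and 7 of all tested genes with a median of 0.185. With the cortex term 4 were higher and 1 lower with a median of -0.15, against 360 and 253. Smad2, a SMAD of activin and TGF-beta receptors, had signals of 5.98, 6.28 and 6.50 on METH arrays, against 5.61, 5.86 and 6.07 on saline arrays (log2 change 0.45, SE 0.129, adjusted p = 0.49). On 5 of 6 METH arrays it was higher than on any saline array. Fstl3, a second activin-binding protein, differed by -0.30 in log2 (SE 0.129, adjusted p = 0.737). Bmpr2, the type II BMP receptor, had -0.54 (SE 0.221, adjusted p = 0.72). The activin receptors Acvr2a, Acvr2b and Acvr1 had -0.24, -0.30 and -0.05.

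**Figure D2:**
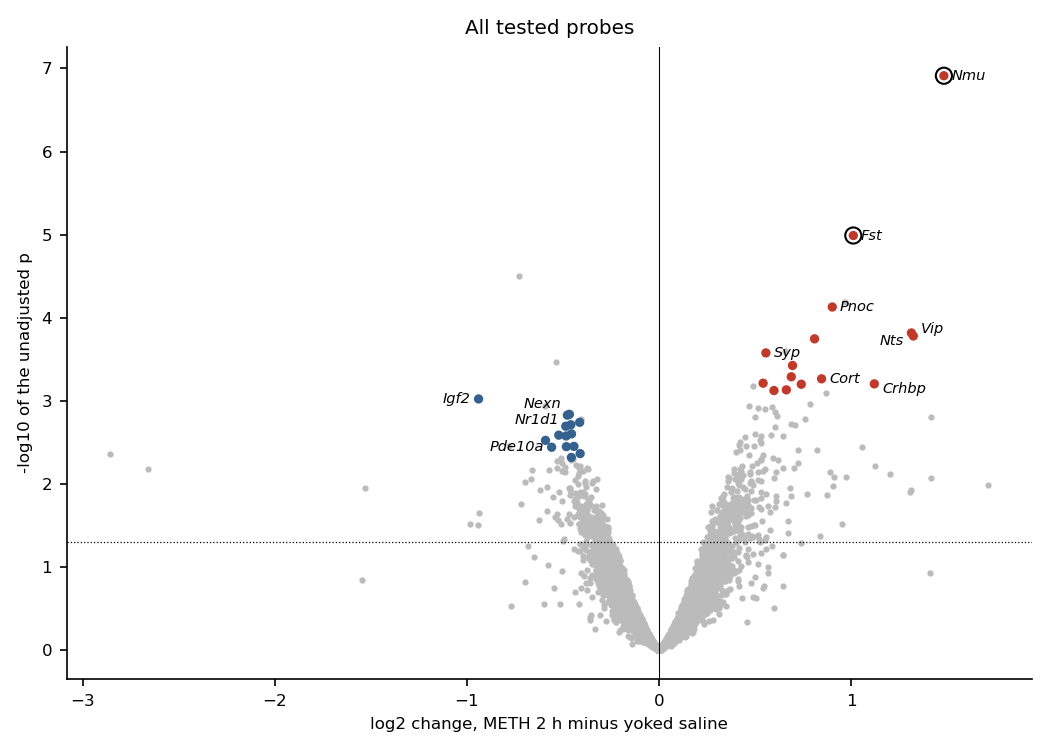
Log2 change, METH 2 h minus yoked saline, against -log10 of the unadjusted limma p for the 9008 tested probes (grey). Red and blue points are the 15 higher and 15 lower named genes of lowest p. Open circles mark the 2 genes with an adjusted p under 0.05, Nmu and Fst. The dotted line marks an unadjusted p of 0.05. Vip stands among the red points at its fitted change and p, although no saline array of this comparison detected it, so its place is no test result.

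The further named genes of lowest p above 0 did not pass. Syp, which encodes the synaptic vesicle protein synaptophysin, had signals of 10.91, 10.99 and 11.21 on METH arrays, against 10.19, 10.53 and 10.75 on saline arrays (log2 change 0.56, SE 0.123, adjusted p = 0.238). Lxn, an inhibitor of carboxypeptidases, had a log2 change of 0.69 (adjusted p = 0.281), and Nr2f1, a nuclear receptor of neuronal development, also had 0.69 (adjusted p = 0.333). The groups overlapped at none of these 3 genes. Efhd2, a calcium-binding protein, had 0.81 (adjusted p = 0.201) and was detected on 1 of 6 saline arrays. It passed without METH replicate 6 (adjusted p = 0.044) and with array weights (0.0303).

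Crhbp, which binds corticotropin-releasing hormone, had signals of 6.49, 7.35 and 7.88 on METH arrays, against 5.19, 6.16 and 6.96 on saline arrays (log2 change 1.12, SE 0.272, adjusted p = 0.333). It passed with array weights (adjusted p = 0.0316) and without both arrays of lowest weight (0.0349). Kcnc2, a potassium channel of fast-spiking interneurons, had 0.66 (adjusted p = 0.337), and its other probes had 0.22 and 0.48. The neuronal calponin relative Tagln3 had 0.74, the protease inhibitor Cst6 had 0.54 and Nipsnap3b had 0.60, each with an adjusted p of 0.333 to 0.337. Cst6 was detected on 5 METH arrays and 1 saline array, so it passed the filter mostly through the METH arrays. Tagln3 overlapped with saline on 3 of 6 METH arrays.

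No named gene passed below 0. Igf2, a growth factor made by choroid plexus and meninges, had signals of 8.88, 9.29 and 9.61 on METH arrays, against 9.56, 10.03 and 11.46 on saline arrays (log2 change -0.94, SE 0.239, adjusted p = 0.387). Saline replicate 5 was the high array. The mean of 9 choroid plexus and ependyma markers, Igf2 among them, was 7.21 to 7.66 on METH arrays and 7.19 to 8.87 on saline arrays, highest on the same saline replicate 5. Among them Ttr, the transthyretin gene of the choroid plexus, had a log2 change of -1.55 with an SE of 1.01, and Folr1, Kcnj13 and Slc4a5 were not detected on any array. The part of these cells in the Igf2 difference was not tested.

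Nr1d1, the clock repressor REV-ERB alpha, had signals of 6.68, 7.03 and 7.20 on METH arrays, against 7.25, 7.46 and 7.76 on saline arrays. All METH arrays lay below all saline arrays (log2 change -0.48, SE 0.128, adjusted p = 0.414). Nexn, an actin-binding protein, had -0.47 (adjusted p = 0.414; its second probe had -0.36), and Epb41l4a, C2cd2l and the postsynaptic protein gene Lzts3 had -0.41, -0.46 and -0.59. The groups did not overlap at these 4 genes either. With median scaling Nr1d1, Epb41l4a and C2cd2l had -0.28, -0.19 and -0.23, and the 15 lower named genes of lowest p had -0.695 to -0.19. Pde10a, a phosphodiesterase that breaks down cyclic nucleotides in projection neurons, had -0.56 (SE 0.167, adjusted p = 0.523). The other lower genes of lowest p were Upk1a, the semaphorin receptor Plxnd1, the detoxifying hydrolase Ephx1, Ydjc, the chromatin gene Arid4a, the EGF receptor ligand Tgfa, the autophagy adaptor Wdfy3 and the citrullinating enzyme Padi2. Their log2 changes lay between -0.52 and -0.41 (adjusted p 0.437 to 0.595), and Upk1a was detected on 1 of 6 METH arrays.

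Immediate early genes report recent neuronal activity. Of 48 listed, 29 passed the filter, 0 passed the limma test, and at an unadjusted p under 0.05, 6 were higher and 0 lower, against 228 and 171 of all 6543 tested genes, with a median log2 change of 0.12. With median scaling 10 were higher and 0 lower with a median of 0.33, against 487 and 7 of all tested genes with a median of 0.185. With the cortex term 4 were higher and 1 lower with a median of 0.16, against 360 and 253. Zfp36 of this list passed the adjusted test in that fit. Crem encodes a relative of CREB whose short, inducible product represses cyclic AMP signalling. Its signals were 6.98, 7.22 and 7.39 on METH arrays, against 5.84, 6.74 and 6.96 on saline arrays (log2 change 0.54, SE 0.167, adjusted p = 0.58). The groups did not overlap and saline replicate 4 was the low array. With each array left out in turn the change was 0.38 to 0.60, lowest without saline replicate 4. A second Crem probe was not tested, since it was detected on 1 METH array and 0 saline arrays.

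Fos, the AP-1 gene most used as an activity marker, had signals of 5.73, 6.35 and 6.59 on METH arrays, against 5.26, 5.68 and 6.34 on saline arrays (log2 change 0.49, SE 0.185, adjusted p = 0.697). It overlapped with saline on 3 METH arrays. The nuclear receptor gene Nr4a3 had 0.61 (SE 0.23, adjusted p = 0.697), the synaptic pentraxin Nptx2 had 0.51 (SE 0.163, adjusted p = 0.595), and the transcription factors Nfil3 and Klf10 had 0.45 and 0.41. Egr1 and Arc, which are also activity markers, had 0.15 (SE 0.137) and -0.14 (SE 0.201). The sign of Arc turned to 0.10 with median scaling. Junb, Jun and Egr4 had -0.17, 0.11 and 0.11.

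The pathway of CREB itself, with its kinases, phosphatases and coactivators, had 25 members past the filter of 40 listed. None passed the limma test, and at an unadjusted p under 0.05 Crem was higher and Ppp1r1b, the phosphatase inhibitor DARPP-32, was lower (log2 change -0.28, SE 0.126, adjusted p = 0.767). Among all 6543 tested genes 228 were higher and 171 lower. The median log2 change of the list was -0.10, and 0.13 with median scaling. Creb1 was on the array and did not pass the filter. CREB target and trophic genes had 21 members past the filter of 34 listed. Of these 0 passed by limma, 7 were higher and 0 lower at an unadjusted p under 0.05, against 228 and 171 of all 6543 tested genes, and the median was 0.18. With median scaling 8 were higher and 0 lower with a median of 0.35, against 487 and 7 of all tested genes with a median of 0.185. With the cortex term 4 were higher and 2 lower with a median of 0.11, against 360 and 253. Syp, Pdyn, Nptx2, Adcyap1, Scg2 and Nr4a3 are given above, since these genes stand in other lists too. The remaining one, Bdnf, a growth factor released by active neurons, had signals of 5.32, 6.27 and 6.82 on METH arrays, against 4.90, 5.48 and 6.11 on saline arrays (log2 change 0.68, SE 0.242, adjusted p = 0.647). It was detected on 5 METH arrays and 3 saline arrays. Ntrk2, its receptor, had 0.03 (SE 0.232, adjusted p = 0.998).

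**Figure D3:**
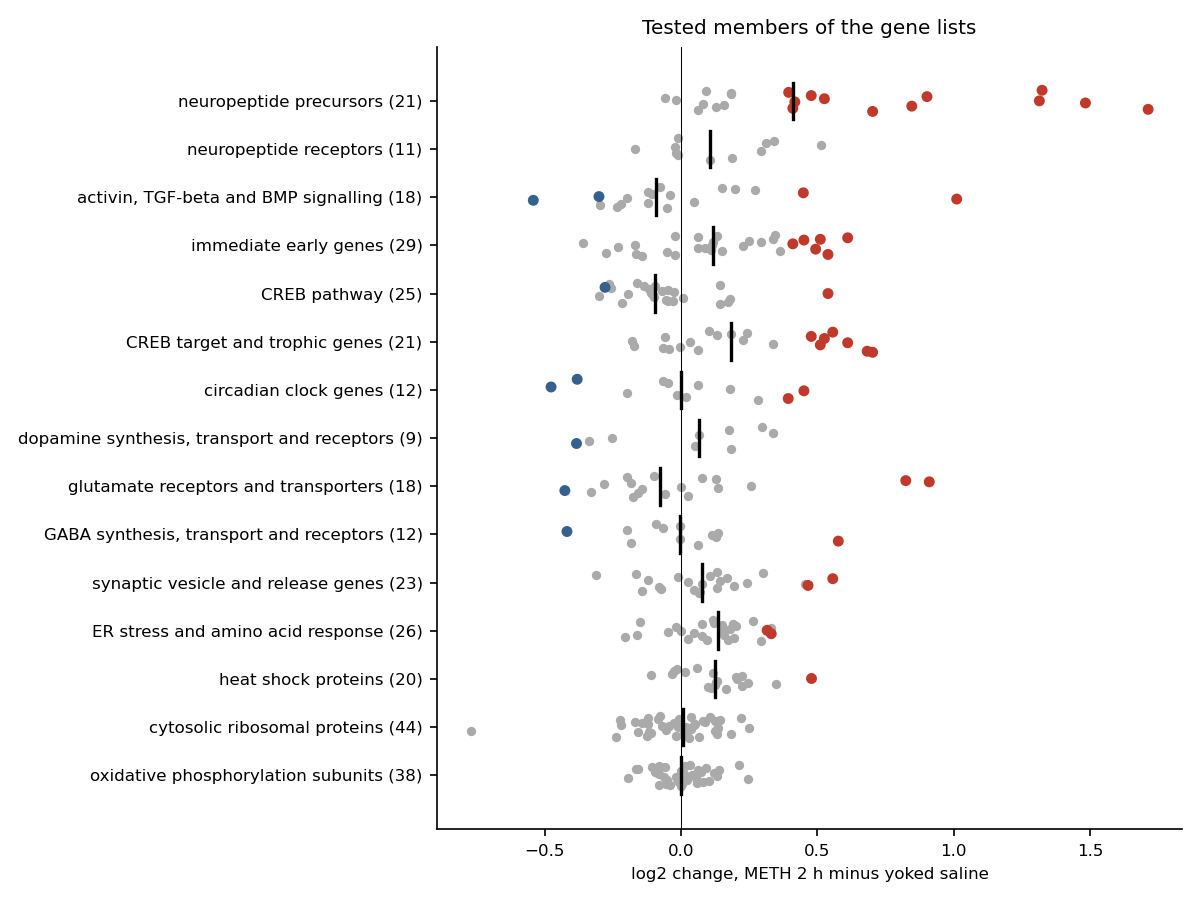
Log2 change, METH 2 h minus yoked saline, of each tested member of 15 gene lists, with the number tested in brackets. Red and blue points had an unadjusted p under 0.05 above or below 0, and grey points did not. Black ticks are list medians, which run from -0.10 for the CREB pathway to 0.41 for neuropeptide precursors. Vip, a neuropeptide precursor, is drawn at its fitted change and coloured by its fitted p, although no saline array of this comparison detected it.

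Of 12 clock genes tested, 0 passed by limma, and at an unadjusted p under 0.05, 2 were higher and 2 lower, against 228 and 171 of all 6543 tested genes. With median scaling 2 were higher and 0 lower, against 487 and 7 of all tested genes. With the cortex term 0 were higher and 2 lower, against 360 and 253. The clock activator Bmal1 differed by 0.39 in log2 (SE 0.145, adjusted p = 0.687) and Nfil3 0.45, while Nr1d1 had -0.48 and the output factor Tef -0.38 (SE 0.145, adjusted p = 0.698). Bmal1 was higher on 5 of 6 METH arrays than on any saline array. Time of day at death and METH cannot be told apart here, since the labels give no time for saline rats.

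Dopamine signalling genes had 9 members past the filter of 23 listed, and 0 passed by limma. At an unadjusted p under 0.05, 0 were higher and 1 lower, against 228 and 171 of all 6543 tested genes. With median scaling these were 1 and 0, against 487 and 7. Drd1, the D1 receptor gene, had signals of 9.25, 9.69 and 10.02 on METH arrays, against 9.90, 10.05 and 10.21 on saline arrays (log2 change -0.39, SE 0.141, adjusted p = 0.684). Drd2, the D2 receptor gene, had 8.20, 8.50 and 8.77 on METH arrays, against 8.22, 9.00 and 9.27 on saline arrays (log2 change -0.34, SE 0.167, adjusted p = 0.855). With median scaling the changes were -0.15 for Drd1 and -0.09 for Drd2. The groups overlapped at both. Among markers of projection neurons as a whole, 26 were tested, 0 passed by limma, and at an unadjusted p under 0.05, 7 were lower and 2 higher, against 171 lower and 228 higher of all 6543 tested genes. The 7 were Pde10a, Drd1, Ppp1r1b, Itpka, Rgs4, Pde1b and Rgs9, genes of cyclic nucleotide, inositol and G protein signalling, with log2 changes of -0.56 to -0.28. The higher ones were Pdyn and Arpp21 (0.35). The median was -0.20, and with median scaling it was 0.005 with 0 members lower, while the median change of all tested probes was 0.176.

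Glutamate genes (18 tested) and GABA genes (12 tested) did not pass by limma either, and 2 and 1 were higher and 1 and 1 lower at an unadjusted p under 0.05. With median scaling 3 and 1 were higher and 0 lower in either list. Among all 6543 tested genes 228 were higher and 171 lower, and 487 and 7 with median scaling. The vesicular glutamate transporters Slc17a7 and Slc17a6, of cortical and of thalamic neurons, had log2 changes of 0.82 (SE 0.25, adjusted p = 0.545) and 0.91 (SE 0.307, adjusted p = 0.607). They were detected on 2 and 3 of 6 saline arrays. The kainate receptor subunit Grik5 had -0.43 (SE 0.164), the GABA-A receptor subunit Gabrd -0.42 (SE 0.136) and the GABA-B receptor subunit Gabbr2 0.58 (SE 0.254). In the synaptic vesicle list, 23 were tested, and besides Syp only Stx1a, a syntaxin of transmitter release, had an unadjusted p under 0.05 (log2 change 0.47, SE 0.175). It was detected on 2 of 6 saline arrays.

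In the stress and housekeeping lists 0 genes passed by limma. Chaperones of the endoplasmic reticulum and amino acid response genes had a median log2 change of 0.14 over 26 members, with Hsp90b1 at 0.32 and Dnajb9 at 0.33. Heat shock proteins had 0.13 over 20 members, with the small chaperone partner Dnajb5 at 0.48. Glucocorticoid-responsive genes had -0.09 over 17 members, with the steroid-activating enzyme Hsd11b1 at 0.38 and the repressor Bcl6 at 0.32. That median was 0.11 with median scaling and 0.265 with the cortex term. MAP kinase genes had -0.07 over 18 members, with the inhibitor Spry2 at 0.55, the phosphatase Dusp8 at -0.32 and the kinase Mapk10 at 0.41. The MAP kinase median was 0.155 with median scaling. Each gene named so far from these lists had an unadjusted p under 0.05. At that threshold 228 of all 6543 tested genes were higher and 171 lower. Antioxidant genes (26), chromatin and DNA methylation enzymes (18), cytosolic ribosomal proteins (44) and oxidative phosphorylation subunits (38) had medians between -0.04 and 0.01. Of their members 0 had an unadjusted p under 0.05 in either direction, against 228 higher and 171 lower of all 6543 tested genes. All 4 medians were 0.15 to 0.23 with median scaling. The ribosomal list does not hold Rps9, whose probes had log2 changes of -2.66 and -1.53 at unadjusted p of 0.0066 and 0.0113 (adjusted p = 0.595 and 0.647), with a wide spread within both groups.

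Markers of cells beyond the projection neurons were read on the same arrays. The mean of 10 markers of cortical excitatory neurons was 7.19 to 7.83 on METH arrays, with a median of 7.53, and 6.63 to 7.50 on saline arrays, with a median of 6.84. On 3 METH arrays it exceeded all saline values. At an unadjusted p under 0.05, 5 of the 10 were higher: Satb1, Slc17a7, Neurod6, Cck and Fezf2, with log2 changes of 0.67 to 1.71, and 0 were lower, against 228 and 171 of all 6543 tested genes. Tle4, Etv1, Lamp5, Emx1 and Camk2a had -0.03 to 0.19, and Neurod2, Neurod1 and Rasgrf2 were not detected on any array.

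Markers of striatal interneurons had a mean of 6.88 to 7.17 on METH arrays and 6.47 to 6.92 on saline arrays, and it exceeded all saline values on 5 METH arrays. Of 15 tested, 5 were higher at an unadjusted p under 0.05, Vip, Cort, Kcnc2, Cck and Npy, and Nos1 was lower (log2 change -0.33, SE 0.154), against 228 and 171 of all 6543 tested genes. Vip was among these, and in the mean, through its METH arrays alone, and Cck is also a cortex marker. The log2 changes of the 15 had a mean of 0.36 and a median of 0.18. No mean without Vip and Cck was computed. With median scaling 6 were higher and 0 lower, against 487 and 7 of all tested genes. Pvalb, Sst, Lhx6 and the cholinergic markers Slc5a7 and Slc18a3 had 0.29, 0.18, -0.17, 0.15 and 0.01. Astrocyte, microglia and oligodendrocyte markers had median log2 changes of 0.02, -0.002 and -0.13, and 0.24, 0.23 and 0.10 with median scaling. In the glial lists, Gfap had 0.43, C1qc 0.50 and Opalin -0.46, each at an unadjusted p under 0.05. The haemoglobin genes, the 4 blood markers tested, had log2 changes between -0.40 and -0.21 and 0 below an unadjusted p of 0.05.

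With the cortex marker mean as a further term of the fit, a choice made with earlier results known, Nmu and Fst both passed, with log2 changes of 1.64 and 1.33 (adjusted p = 0.0148 for each). Zfp36, of the immediate early list, and an unnamed probe passed too. In that fit the changes were 1.70 for Nts, 0.72 for Pdyn and 0.71 for Crem, against 1.31, 0.53 and 0.54 without the term. Pnoc, Syp and Npy had 0.84, 0.54 and 0.45, against 0.90, 0.56 and 0.42. Cort had 0.54, Crhbp 0.23, Bdnf 0.11 and Adcyap1 0.09, against 0.85, 1.12, 0.68 and 0.70. The term holds part of the group difference, since the cortex mean differs between the groups. Projection neuron markers had 3 lower and 2 higher, against 253 and 360 of all tested genes, with a median of -0.08.

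**Figure D4:**
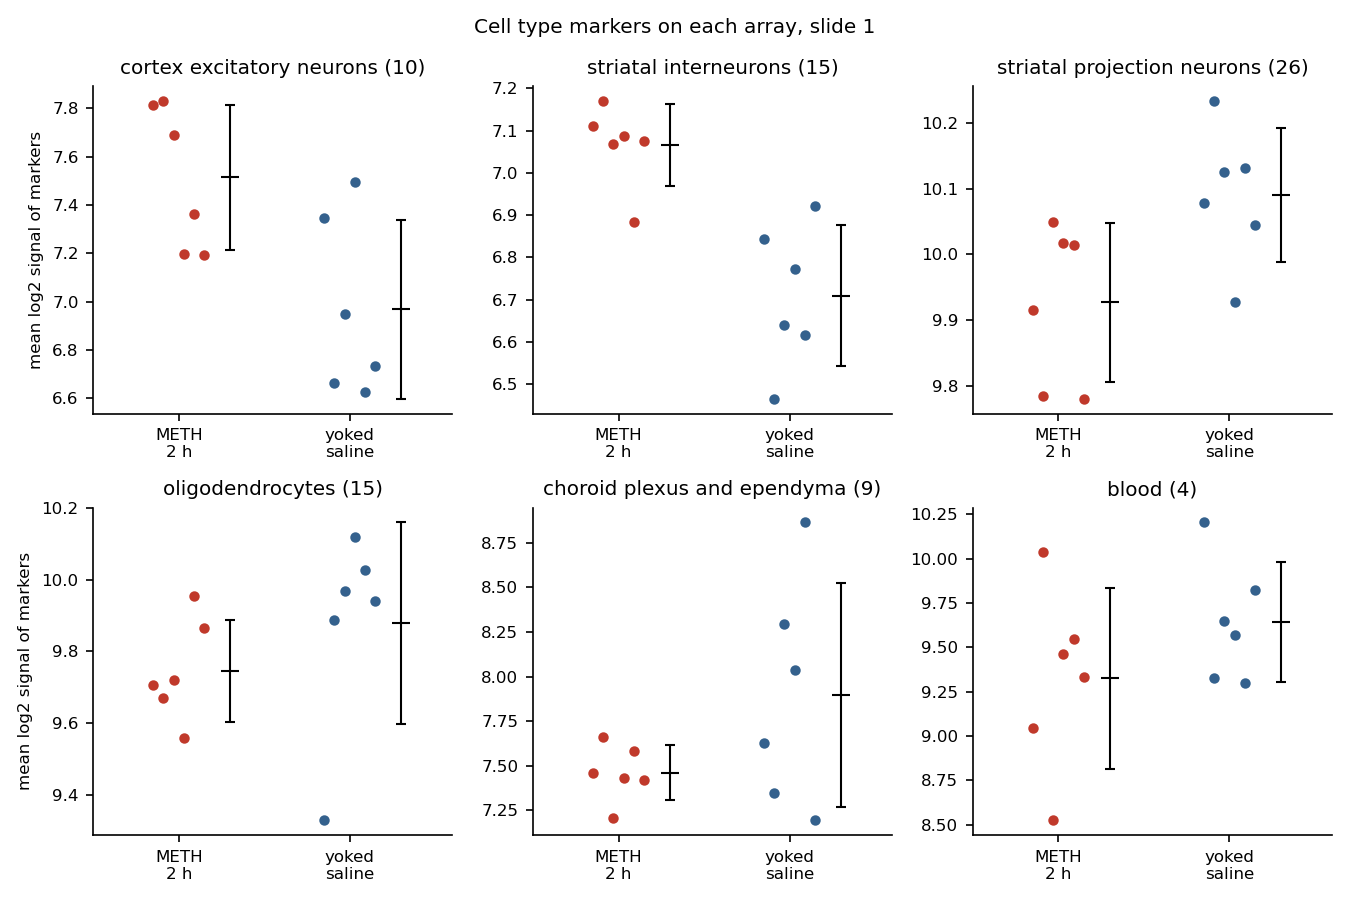
Mean log2 signal of the tested markers of 6 cell types on each array of slide 1, with METH arrays left of yoked saline arrays (points), the group mean with its SD (bars), and the number of markers in brackets. METH arrays had 3 cortex means and 5 interneuron means above those of all saline arrays and 3 projection neuron means below them. The interneuron mean holds Vip, which no saline array of slide 1 detected, and Cck, which is also a cortex marker.

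The METH effect at 24 h was measured on other slides that were normalized apart, with their own saline arrays. The difference between the METH effects at 2 h and 24 h passed at 0 of the 9008 probes (0%) by limma with Benjamini-Hochberg adjustment. At an unadjusted p under 0.05 it had 434 probes (4.82%), where 450 are expected by chance. Nmu had a log2 change of 0.22 at 24 h, with METH arrays at 5.85 to 6.61 and saline arrays at 5.58 to 6.23. The difference of 1.26 (SE 0.24) between its changes did not pass (adjusted p = 0.051), and passed without METH replicate 4 (0.0234) or saline replicate 5 (0.0455) of slides 2 and 3. Without any other array of either time it did not pass (adjusted p up to 0.183).

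Fst had a log2 change of 0.25 at 24 h, and the difference between its changes was 0.77 (SE 0.229, adjusted p = 0.668). Nts had -0.11 at 24 h and a difference of 1.43 (SE 0.347, adjusted p = 0.317). Pnoc had 0.10 at 24 h and a difference of 0.80 (SE 0.258, adjusted p = 0.815). Vip ran from 4.85 to 6.18 on METH arrays and from 4.68 to 5.87 on saline arrays at 24 h, and no difference between the times is given for it, since its 2 h change is a bound. Crem had -0.08, with a difference of 0.62 (SE 0.187, adjusted p = 0.668). The median log2 change of the 21 neuropeptide precursors was 0.41 at 2 h and 0.14 at 24 h, that of the cortex markers 0.43 and 0.05, and that of the blood markers -0.33 and -1.68.

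**Figure D5:**
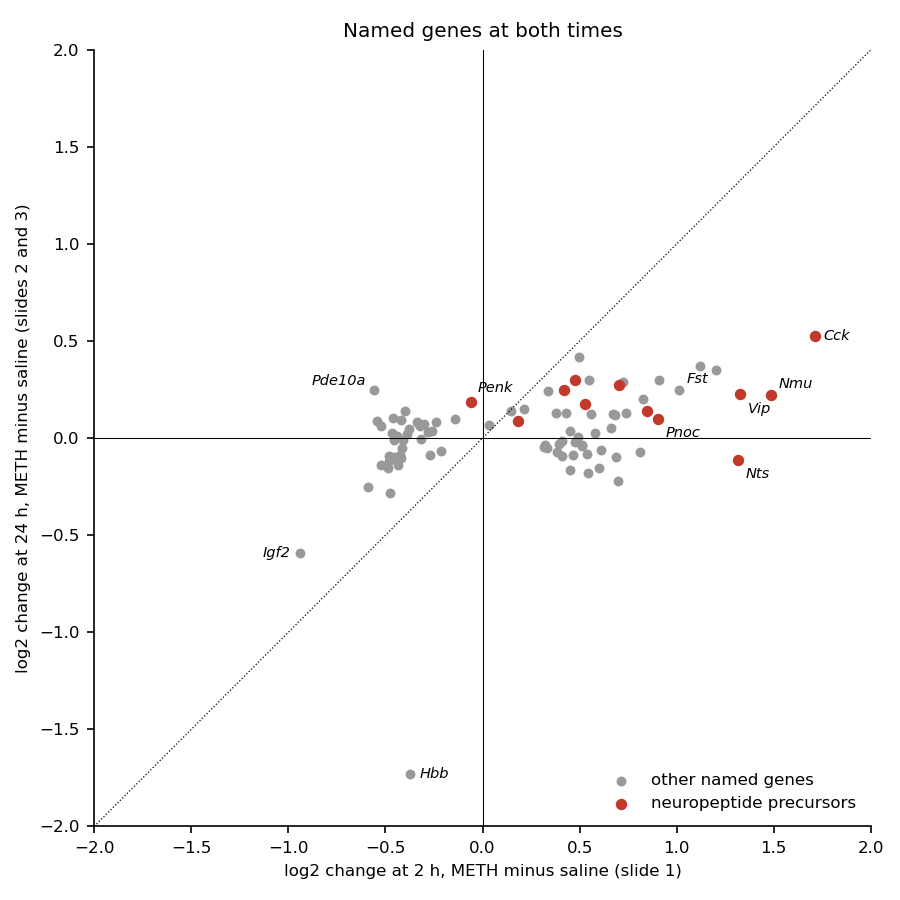
Log2 change at 2 h (METH minus yoked saline, slide 1) against log2 change at 24 h (METH minus yoked saline, slides 2 and 3) for the 90 named genes, with neuropeptide precursors in red and equal changes on the dotted line. Vip stands at its fitted change, although no saline array of slide 1 detected it. Nmu lies at 1.48 and 0.22, Nts at 1.31 and -0.11, and Hbb at -0.38 and -1.73, and the difference passed the adjusted test for 0 genes.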

How the data were processed

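Total RNA (600 ng) was amplified, labelled with biotin, hybridized (750 ng cRNA, 55 °C) and scanned, per the labels' protocols. The authors deposited a raw intensity for 22523 probes, per the file headers. On slide 1, 28.5% to 31.7% of an array's values lie below 0, as after background subtraction, by software not given in the sources used here. The deposited detection score behaves as 1 minus p but stands in another probe order than the intensity (rank correlation -0.0136 to -0.00682 within an array). Sorted scores were therefore given to sorted intensities, with 1 missing score set to its array's median. The deposited log2 values equal log2 intensity, with a floor of 1, less each probe's median (largest deviation 2.17e-06). They carry no scaling between arrays and were an alternative.

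The 12 arrays of slide 1 were background-corrected (normexp, offset 16, negative controls inferred from the scores) and quantile-normalized with limma 3.58.1 in R 4.3.3. Group means were fitted with lmFit and eBayes, with Benjamini-Hochberg adjustment and a threshold of 0.05. The offset lowers the folds of dim genes. Median intensity per array was 8.60 to 17.9, correlations between arrays were 0.950 to 0.982 with 0 identical pairs, and the number of arrays limits the precision. Each array was taken as 1 rat, since per the labels the groups were separate rats. The difference between times was a contrast of contrasts with slide 3 as a term, a spread estimated for each set of slides, and adjustment over the probes tested at 2 h.

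Symbols came from the platform annotation, updated through RefSeq GRCr8 (13757 of 13793 probes with 1 symbol matched, 8730 have none). A gene is its tested probe of highest mean. Members, lists and named genes were chosen with earlier results of these data known. Named genes are those past the threshold, the 15 of lowest p in each direction, up to 6 members of each list with an unadjusted p under 0.05 (or the member of lowest p), and a fixed set (Fos, Egr1, Arc, Bdnf, Penk, Pdyn, Tac1, Crem, Creb1, Nmu, Nts, Fst, Pnoc, Vip, Drd1, Drd2, Ntrk2). Other list members were named after their values were seen. The fit was tested on simulated data. Alternatives were the background, normalization, filter, weights, covariates and leaving out arrays.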

Additional observations from a re-analysis of the deposited data

Results flagged for a closer look

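Of 180 groups of 6 arrays among the named genes, 9 held an array whose distance from its nearest neighbour was a larger part of the group's range than Dixon's critical value allows, and chance gives about 1 in 20. Saline replicate 4 was the far array in 4 of these, low for Penk (0.827 of the range), Crem (0.753) and Fst (0.63) and high for Stx1a (0.704). Its Penk signal was 12.22 with the nearest array at 12.59, its Crem signal 5.84 against 6.69, its Fst signal 5.57 against 6.27 and its Stx1a signal 6.03 against 5.40. METH replicate 6 was far in 3, low for the clock genes Bmal1 (0.738) and Tef (0.635) and high for Nr2f1 (0.626). Igf2 was high on saline replicate 5 (0.735), at 11.46 against 10.06, and Dnajb5 was high on METH replicate 4 (0.642), at 7.62 against 7.14. Saline replicate 4 and METH replicate 6 were also the arrays of lowest weight.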

How the results depend on the processing

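Nmu passed under every alternative except the deposited log2 values, and Fst was lost under those given with it, in the deposited values centred by array (adjusted p = 0.104) and, untested, where detection on all 12 arrays was asked. The count of 2 probes called was 1 with no further background correction, median scaling, 24 arrays normalized together, detection on all 12 arrays, no filter, slide position as a covariate and the deposited values centred by array. It was 0 in the deposited log2 values, 4 with the cortex covariate (Fst, Nmu and Zfp36 with an unnamed probe) and 5 with array weights. It was 7 with 24 arrays fitted together (Fst, Nmu, Nts and Pnoc with unnamed probes). Without both arrays of lowest weight it was 12 (Crhbp, Fst, Neurod6, Nmu, Pnoc, Rps9, Slc17a7 and Tagln3 with unnamed probes). Leaving out 1 array gave 1 to 7, the 7 without METH replicate 6 and 3 without saline replicate 4, and 438 to 756 at an unadjusted p under 0.05, the 756 without saline replicate 1. Against 547, the latter count was 955 with 24 arrays fitted together (10354 probes tested, with normalization and spread also changed), 1206 with no filter (more probes) and 251 in the deposited values. Probes whose groups did not overlap, 39 in all, were 23 under median scaling and 5 in the deposited values. The median change of all probes moved to 0.176 under median scaling and to 0.204 for deposited values. Of probes at an unadjusted p under 0.05, 98% and 94.4% were then higher, against 56.1%. The count of 0 for the difference between times was 0 to 4 when 1 array was left out, 4 (with Rps9) without METH replicate 6 or saline replicate 3 of slide 1 or METH replicate 5 of slides 2 and 3.

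Some log2 changes turned sign, none of them of a gene past the threshold. With the cortex covariate, Sstr1 was -0.359, Gabbr2 -0.179, Mapk10 -0.0671, Neurod6 -0.232, Cck -0.31, Fezf2 -0.223, Penk 0.178 and Ntrk2 -0.555. Neurod6, Cck and Fezf2 are part of that covariate. With median scaling Hdac11 was 0.0407, Rpl13 0.000731, Arc 0.104 and Penk 0.17. In the deposited values Hdac11 was 0.0355, Arc 0.0977 and Penk 0.165. Without both arrays of lowest weight Arc was 0.0116, and over single arrays left out Arc ran from -0.239 to 0.0103 and Ntrk2 from -0.106 to 0.196. The causes of these turns were not tested beyond the move in the median change of all probes. Of 90 named genes, 71 kept direction and side of the threshold under all alternatives. No paired analysis was possible because the labels number no replicates and pair no animals. Leaving out both arrays of lowest weight and centring the deposited values were chosen after seeing the data.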

Other observations

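Outside the lists and the named genes, some probes had large changes with a wide spread, and they are given after their values were seen. Rps9, a protein of the small ribosomal subunit, had log2 changes of -2.66 (SE 0.868, adjusted p = 0.595) and -1.53 (SE 0.543, adjusted p = 0.647) at its probes. The first ran from 4.69 to 10.19 with a median of 4.83 on METH arrays, where it was detected on 1 of 6, and from 4.72 to 9.58 with a median of 8.99 on saline arrays, where it was detected on 5 of 6. The second ran from 7.57 to 11.53 with a median of 7.94 on METH arrays, and from 8.24 to 10.83 with a median of 10.27 on saline arrays. Without METH replicate 6 both passed (adjusted p = 0.0232 and 0.0129). At 24 h the changes were 3.22 and 1.46, and the differences between the times were -5.88 (adjusted p = 0.051) and -2.99 (adjusted p = 0.135). An unnamed probe had a like spread, from 5.58 to 11.42 on METH arrays and from 6.14 to 10.95 on saline arrays (log2 change -2.85, adjusted p = 0.575).

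Hs3st2, a heparan sulfate sulfotransferase, ran from 6.97 to 8.89 on METH arrays and from 4.79 to 8.17 on saline arrays (log2 change 1.42, SE 0.481, adjusted p = 0.607). Ccn3, a matrix-associated signalling protein, ran from 7.25 to 8.80 on METH arrays and from 4.95 to 8.40 on saline arrays (log2 change 1.31, SE 0.47, adjusted p = 0.662). Over the 12 arrays, the named genes whose levels followed Nmu most closely were Mpi, Fst, Trib2, Nts and Bmyc (Pearson r 0.828 to 0.855). The points share the difference between the groups, and with each group's mean taken out the r were 0.223 to 0.673. The probe next after Fst in order of p is unnamed and lay lower on all 6 METH arrays, at 8.89 to 9.50 against 9.66 to 10.12 on saline arrays (log2 change -0.73, adjusted p = 0.0945).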
